A study of Rattus norvegicus with 8 samples.

Results

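Rat neonatal ventricular cardiomyocytes kept in ischemia with eugenol were set against the same kind of cells kept in normoxia with the solvent alone (dimethyl sulfoxide, DMSO). The members were all genes in the authors' deposited table for this pair, 7317 of the 9025 genes listed in any of the 5 deposited tables. Of these, 599 genes were absent from the table of ischemia DMSO against normoxia DMSO and are described in most depth. Low oxygen stabilizes hypoxia-inducible factors (HIF), which switch cells from mitochondrial respiration to glycolysis and induce blood vessel growth factors. Oxidants and electrophiles release the transcription factor NRF2, which induces genes for glutathione, quinone reduction and haem breakdown. Eugenol is a phenol of clove oil, and newborn heart muscle cells carry a large contractile apparatus supplied mainly by mitochondria.

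The cells were isolated from the heart ventricles of Sprague Dawley rats of 2 to 3 days of age. The ischemia eugenol group was held for 24 h at 1% O2 and 5% CO2 with 10 µM eugenol, and the normoxia DMSO group was held for 24 h in normoxia with DMSO. Ischemia DMSO and normoxia eugenol completed the design, with 2 libraries in each of the 4 groups, and their values are given only beside those of the pair studied. The labels give the ischemic condition by its gases and state no separate isolations of cells behind the libraries of a group, so p-values measure the spread between these libraries, which may be technical. In this pair, eugenol and the ischemic condition cannot be told apart.

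The totals behind the deposited FPKM values were 16.01 and 16.7 megareads in ischemia eugenol and 16.5 and 16.1 megareads in normoxia DMSO. Levels are given as RPM, the reads per megaread of these totals, and only genes with an unadjusted p under 0.05 were listed, so an unlisted gene has no value here. Pearson's r across 6560 genes was 0.989 between the ischemia eugenol libraries and 0.991 between the normoxia DMSO libraries, and 0.814 to 0.845 across the groups. Libraries of a group differed by more than sampling noise, with a chi-square per degree of freedom of 11.8 in ischemia eugenol and 14.4 in normoxia DMSO. Each was counted as its own sample, although such a spread does not show that they came from separate isolations of cells. With 2 libraries a group the smallest p of an exact two-sided permutation test is 0.333, so the tests used were fits across all genes. Heart muscle markers such as Myh6, Actc1, Tnnt2, Actn2 and Ryr2 were present in both groups, and so were fibroblast collagens, which are described with the other cell type markers.

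Many genes differed between ischemia with eugenol and normoxia with DMSO. A gene is named as called where it passed an adjusted p of 0.05 in the authors' deposited table, and 6299 of 16036 genes adjusted did so, which is 39.3%. Numbers of genes adjusted, here and below, were derived from the deposited p-values and adjusted p-values. Of these, 2971 (18.5% of those adjusted) were higher and 3328 (20.8%) were lower in ischemia eugenol. Genes called lower took 25.8 and 27.1% of the total in ischemia eugenol and 48.6 and 48.9% in normoxia DMSO. Genes called higher took 32.8 and 31.3% in ischemia eugenol and 18.9 and 18.7% in normoxia DMSO. Most changes were modest, with a median log2 fold change of 0.81 among genes called higher and -0.92 among those called lower. At least 2-fold changes were found in 1090 genes called higher and 1504 called lower, and at least 16-fold ones in 68 and 32. The groups did not overlap for 6291 of the called genes. Nor did they for 97.8% of the 599 genes absent from the ischemia DMSO table and 99.8% of the other listed genes. A lack of overlap therefore sets no listed gene apart. Genes called lower were shorter in the deposited annotation, with a median length of 2274 bases against 2830 bases for those called higher.

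Each log2 change below is given with its standard error (SE) from a refit with edgeR's quasi-likelihood test on 7695 genes with reads in these 4 libraries, scaled to the same totals. Those genes were pre-selected for a difference in some table, so 96.8% passed its adjusted p of 0.05, and that share is no measure of how much of the transcriptome changed. For the same reason, refit p-values and SEs of listed genes are no support apart from the values that chose them. The median log2 change over the 7695 genes was -0.27 with these totals and -0.10 with DESeq2 size factors, and a small change is therefore read against that shift.

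**Figure D1:**
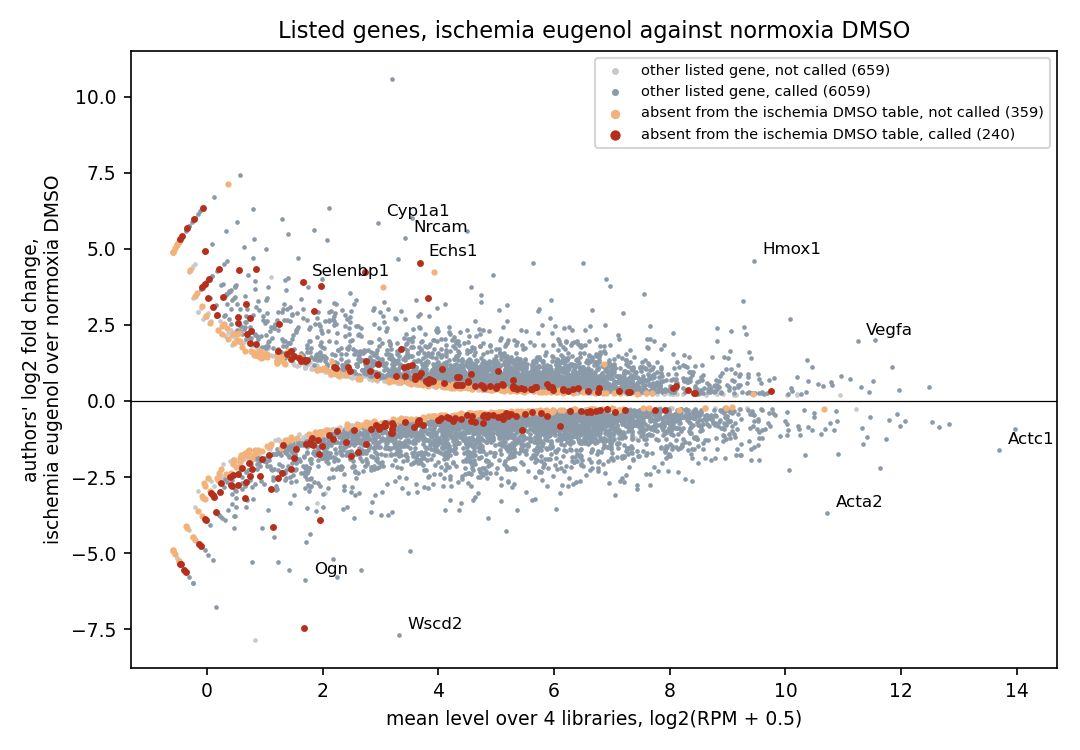
Each point is a listed gene, placed by its mean level over the 4 libraries, log2(RPM + 0.5), and its log2 fold change in the authors' deposited table, ischemia eugenol over normoxia DMSO. The empty band around 0 is where genes were not listed. The 599 genes absent from the ischemia DMSO table, in orange and red, sit mostly along the edge of that band and at lower levels than the other 6718.

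The 599 genes absent from the ischemia DMSO table made up 8.19% of the genes listed, with 301 higher and 298 lower in ischemia eugenol. Of these, 240 were called, 123 higher and 117 lower. That is 40.1% of the 599, against 90.2% of the 6718 genes listed for both comparisons. The rule itself uses both comparisons, which share the normoxia DMSO libraries, so these counts are a description and not evidence that eugenol changed a gene. Absence means only that no unadjusted p under 0.05 was listed for ischemia DMSO. The genes were weakly expressed, with a median of 14.4 RPM in the higher group against 48.1 RPM for the 6718 genes listed in both. Their median absolute log2 fold change was 0.73 against 0.84, and 203 of the 599 stayed below 5 RPM in both groups. At least 2-fold differences were as frequent, 39.4% in either set. Protein coding genes made up 89.5% of the subset and 95.1% of the genes listed in both, and 31 of the 599 were unannotated transcripts. Of the 599, 361 were also listed for ischemia eugenol against normoxia eugenol, 50 for ischemia eugenol against ischemia DMSO and 25 for normoxia eugenol against normoxia DMSO, while 206 were in no other table. Ischemia DMSO levels can be given for those 50 genes, which are themselves listed for a difference between the ischemia groups, so a gap between them is no finding. Just inside the listing limit, Helz, an RNA helicase, had 44.0 and 52.0 RPM in ischemia eugenol against 34.8 and 40.8 RPM in normoxia DMSO, with an unadjusted p of 0.0497 in the authors' deposited table. Just outside the subset, Ergic2, a protein of early secretory membranes, had 46.5 and 44.7 RPM in ischemia eugenol against 56.4 and 55.3 RPM in normoxia DMSO and an unadjusted p of 0.0498 for ischemia DMSO in the authors' deposited table.

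Echs1, the short-chain enoyl-CoA hydratase of mitochondrial fatty acid oxidation, had the largest rise among the named genes of this subset. It had 26.5 and 21.0 RPM in ischemia eugenol against 1.21 and 0.808 RPM in normoxia DMSO. Both ischemia eugenol libraries were high and the groups lay far apart, with a log2 change of 4.54 ± 0.27. Its level was 0.676 and 0.690 RPM in ischemia DMSO, as low as in normoxia, and 5.88 and 0.953 RPM in normoxia eugenol, where 1 of 2 libraries was raised. The authors' deposited table of ischemia eugenol against ischemia DMSO gave a log2 fold change of 5.13 (adjusted p = 7.2e-37). In a refit of all 8 libraries over 6582 pre-selected genes, Echs1 was the 1 gene that passed between these 2 groups (0.0152%; edgeR quasi-likelihood, adjusted p = 0.00785), and 242 had an unadjusted p under 0.05. The log2 effect of eugenol was 3.34 ± 0.91 larger in ischemia than in normoxia, which did not pass when tested as an interaction (edgeR quasi-likelihood, adjusted p = 0.845). Echs1 lost that call without ischemia DMSO replicate 1 (5.09, adjusted p = 0.115, edgeR quasi-likelihood), where another gene, lower in ischemia eugenol, was the 1 call, and without ischemia DMSO replicate 2 (5.12, adjusted p = 0.213, edgeR quasi-likelihood), where 0 genes were called. It kept the call without either ischemia eugenol replicate, and without ischemia eugenol replicate 1 the refit called 11 genes. The first 608 bases of the gene, chr1:212570195-212579057 on the minus strand in the coordinates as deposited, overlap the start of Paox, a polyamine oxidase on the plus strand. Paox had 19.5 and 19.5 RPM in ischemia eugenol, 20.1 and 21.3 RPM in ischemia DMSO and 11.4 and 11.1 RPM in normoxia DMSO, so it differed little between the ischemia groups. Whether counting used the strand is not given in the sources used here.

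Of all genes adjusted in that table, 23 of 18972 (0.121%) were called between ischemia eugenol and ischemia DMSO, and 6 of them were in the subset: Echs1, Hiat1, Lemd2, Hmgb3, LOC100911994 and AABR07029710.1. Hiat1, a membrane transporter of the major facilitator family, had 18.3 and 12.6 RPM in ischemia eugenol, 5.02 and 6.21 RPM in ischemia DMSO and 4.89 and 8.70 RPM in normoxia DMSO. Lemd2, an inner nuclear membrane protein, had 15.4 and 14.3 RPM in ischemia eugenol, 7.78 and 6.59 RPM in ischemia DMSO and 5.14 and 3.85 RPM in normoxia DMSO. In both genes the ischemia eugenol libraries lay above those of the other 2 groups, with log2 changes against normoxia DMSO of 1.19 ± 0.29 and 1.72 ± 0.22. Both genes were chosen for differing from these 2 groups, so this position is no finding. Hmgb3, a chromatin protein of the HMG box family, was lower, at 3.19 and 1.38 RPM in ischemia eugenol, 5.75 and 10.2 RPM in ischemia DMSO and 4.89 and 11.1 RPM in normoxia DMSO. Some of these lost the refit's call against normoxia DMSO when 1 library was left out: Hmgb3 without ischemia eugenol replicate 2 (-1.33, adjusted p = 0.0553, edgeR quasi-likelihood) and Hiat1 without ischemia eugenol replicate 1 (0.89, adjusted p = 0.0564, edgeR quasi-likelihood). AABR07029710.1 lost it without ischemia eugenol replicate 1 (0.43, adjusted p = 0.153, edgeR quasi-likelihood) and without normoxia DMSO replicate 1 (0.40, adjusted p = 0.0663, edgeR quasi-likelihood).

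A few subset genes stood in the same direction in normoxia with eugenol. That comparison shares the normoxia DMSO libraries with this pair, so an uneven level there would move a gene alike in both. The same direction is therefore no independent sign of an effect of eugenol. In normoxia eugenol against normoxia DMSO, 26 of 14362 genes (0.181%) were called in the authors' deposited table, and 6 of them were in the subset: Rtkn, Tspan4, Wdr77, LOC100911034, LOC100911994 and AABR07029056.1. Of these, AABR07029056.1 was higher in ischemia eugenol (13.6 and 12.6 against 9.49 and 5.28 RPM) but lower in normoxia eugenol (2.72 and 1.16 RPM), and it missed the refit's threshold without ischemia eugenol replicate 1 (0.77), ischemia eugenol replicate 2 (0.87) or normoxia DMSO replicate 2 (0.46). Rtkn had 3.37 and 7.603 RPM in ischemia eugenol, 6.53 and 4.42 RPM in normoxia eugenol and 0.363 and 1.06 RPM in normoxia DMSO. Both eugenol groups were high, and the log2 change in ischemia eugenol was 2.95 ± 0.54. Selenbp1, a selenium-binding methanethiol oxidase, had 4.62 and 5.45 RPM in ischemia eugenol, 3.43 and 12.7 RPM in normoxia eugenol and 0.544 and 0.124 RPM in normoxia DMSO, again high in both eugenol groups. Its refit log2 change was 3.87 ± 0.50 in ischemia eugenol, but the authors' deposited table for normoxia eugenol gave it an adjusted p of 0.128. Wdr77, a partner of the arginine methyltransferase PRMT5, was lower, at 0.812 and 2.27 RPM in ischemia eugenol and 0.647 and 0.136 RPM in normoxia eugenol, against 3.51 and 6.71 RPM in normoxia DMSO. Tspan4, a tetraspanin, had 2.69 and 2.69 RPM in ischemia eugenol and 1.42 and 2.04 RPM in normoxia eugenol, against 13.5 and 3.54 RPM in normoxia DMSO. The normoxia DMSO libraries of Tspan4 disagreed, and without normoxia DMSO replicate 1 its refit log2 change was -0.40 (adjusted p = 0.338, edgeR quasi-likelihood). Tspan4 also missed the threshold without ischemia eugenol replicate 1 or 2 (adjusted p = 0.0893 and 0.086, edgeR quasi-likelihood), and Wdr77 without ischemia eugenol replicate 1 was at -1.16 (adjusted p = 0.0664, edgeR quasi-likelihood). Ischemia DMSO levels of Rtkn, Selenbp1, Wdr77 and Tspan4 were not analysed here.

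Genes of oxidant defence and protein folding in the subset included Slc7a11, the cystine importer that feeds glutathione synthesis and an NRF2 target. It had 24.6 and 35.9 RPM in ischemia eugenol, 23.0 and 19.5 RPM in ischemia DMSO, 20.1 and 16.4 RPM in normoxia eugenol and 16.1 and 16.7 RPM in normoxia DMSO. The lower ischemia eugenol library still lay above both normoxia DMSO ones, and the log2 change between these groups was 0.88 ± 0.18. Hspa5, the main chaperone of the endoplasmic reticulum (BiP), had 955 and 985 RPM in ischemia eugenol, 823 and 811 RPM in ischemia DMSO, 824 and 777 RPM in normoxia eugenol and 727 and 793 RPM in normoxia DMSO. The rise was small, 0.35 ± 0.10, and the groups did not overlap. Hsp90b1, the endoplasmic reticulum form of HSP90, had 720.4 and 779 RPM in ischemia eugenol against 602 and 669 RPM in normoxia DMSO and was listed but not called. Fam134b, a receptor for the autophagy of endoplasmic reticulum, was called higher, with 19.4 and 24.6 RPM in ischemia eugenol, 12.4 and 15.3 RPM in ischemia DMSO and 10.6 and 10.5 RPM in normoxia DMSO. Slc7a11, Hspa5 and Fam134b were listed but not called between ischemia eugenol and ischemia DMSO in the authors' deposited table.

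Immediate-early genes were among those called higher in the subset. Nr4a3, an immediate-early nuclear receptor, had 7.37 and 13.1 RPM in ischemia eugenol, 6.71 and 4.77 RPM in ischemia DMSO and 3.93 and 4.79 RPM in normoxia DMSO. It was listed but not called between the ischemia groups in the authors' deposited table. Egr2, an immediate-early zinc finger factor, had 22.1 and 27.2 RPM in ischemia eugenol against 11.97 and 16.5 RPM in normoxia DMSO, and Dusp10, a phosphatase that switches off stress kinases, had 13.0 and 16.8 against 8.88 and 8.33 RPM. Against normoxia DMSO all 3 were called higher, with log2 changes of 1.23 ± 0.30, 0.79 ± 0.19 and 0.79 ± 0.20, and in each the lower ischemia eugenol library exceeded the higher normoxia DMSO one. Slfn3, a Schlafen gene, Pak2, a p21-activated kinase, and Casc1 were also called higher, with log2 changes of 0.80 ± 0.16, 1.16 ± 0.30 and 1.33 ± 0.25. Without ischemia eugenol replicate 1 the refit value of Pak2 was 0.82 (adjusted p = 0.0702, edgeR quasi-likelihood).

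Factors of heart development were among the subset genes called lower. Hand2, a transcription factor of heart chamber formation, had 2.69 and 4.13 RPM in ischemia eugenol, 5.69 and 6.96 RPM in ischemia DMSO, 10.6 and 7.96 RPM in normoxia eugenol and 8.88 and 9.33 RPM in normoxia DMSO. Every ischemia eugenol library was below every library of the other 3 groups, and the log2 change against normoxia DMSO was -1.41 ± 0.27. Its ischemia DMSO levels are known only because it was listed for a difference between the ischemia groups. It was not called between them in the authors' deposited table. Tbx5, a T-box factor of the same process, had 14.8 and 14.0 RPM in ischemia eugenol against 21.3 and 23.8 RPM in normoxia DMSO, and Hcn4, the pacemaker channel, had 17.4 and 21.4 against 27.3 and 27.4 RPM. Both were called lower, with log2 changes of -0.65 ± 0.15 and -0.49 ± 0.15, although Hcn4 missed the refit's threshold without ischemia eugenol replicate 1 (-0.35, adjusted p = 0.0685, edgeR quasi-likelihood) and with DESeq2 size factors (-0.32, adjusted p = 0.0593, edgeR quasi-likelihood). Tcf21, a fibroblast and epicardial factor, had 35.9 and 31.5 RPM in ischemia eugenol against 50.5 and 42.9 RPM in normoxia DMSO and lost its refit call without ischemia eugenol replicate 2 (-0.38, adjusted p = 0.0562, edgeR quasi-likelihood), without normoxia DMSO replicate 1 (-0.35, adjusted p = 0.0538, edgeR quasi-likelihood) and with DESeq2 size factors (-0.30, adjusted p = 0.0571, edgeR quasi-likelihood). Hey2, a Notch-responsive repressor of the ventricle, had 15.3 and 12.7 RPM in ischemia eugenol against 21.2 and 17.9 RPM in normoxia DMSO and was not called.

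The other named genes called lower in the subset had varied roles. Arpc5l, an Arp2/3 subunit, had 30.0 and 28.9 RPM in ischemia eugenol against 45.7 and 67.3 RPM in normoxia DMSO, and Dclk1, a doublecortin-like kinase, had 23.4 and 17.5 against 33.3 and 33.5 RPM. Wee1, the kinase that holds back entry into mitosis, had 30.8 and 30.0 RPM in ischemia eugenol against 42.6 and 41.8 RPM in normoxia DMSO. In these 3 genes both ischemia eugenol libraries were below both normoxia DMSO libraries, with log2 changes of -0.94 ± 0.17, -0.71 ± 0.16 and -0.47 ± 0.11. Hdac6, a cytoplasmic deacetylase of tubulin, was at 6.997 and 4.37 RPM in ischemia eugenol against 9.85 and 13.7 RPM in normoxia DMSO, and St8sia2, a polysialyltransferase, at 3.19 and 2.22 against 5.68 and 8.02 RPM, both without overlap. Kbtbd3 and Nr2f6, an orphan nuclear receptor, completed the 12 lower genes, at -0.91 ± 0.21 and -0.36 ± 0.10, and Nr2f6 was not called in the refit with DESeq2 size factors (-0.19, adjusted p = 0.125, edgeR quasi-likelihood). Of the list members in the subset, Psat1 of serine synthesis and Psmb9 of the immunoproteasome were also called lower, and Bid, a death-promoting BCL2 relative, was called higher. Psat1 was at -0.22 with DESeq2 size factors and missed the refit's threshold (adjusted p = 0.0948, edgeR quasi-likelihood). Bid had 15.9 and 13.0 RPM in ischemia eugenol against 8.40 and 8.95 RPM in normoxia DMSO and stood at 0.58 without ischemia eugenol replicate 1 (adjusted p = 0.0513, edgeR quasi-likelihood).

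**Figure D2:**
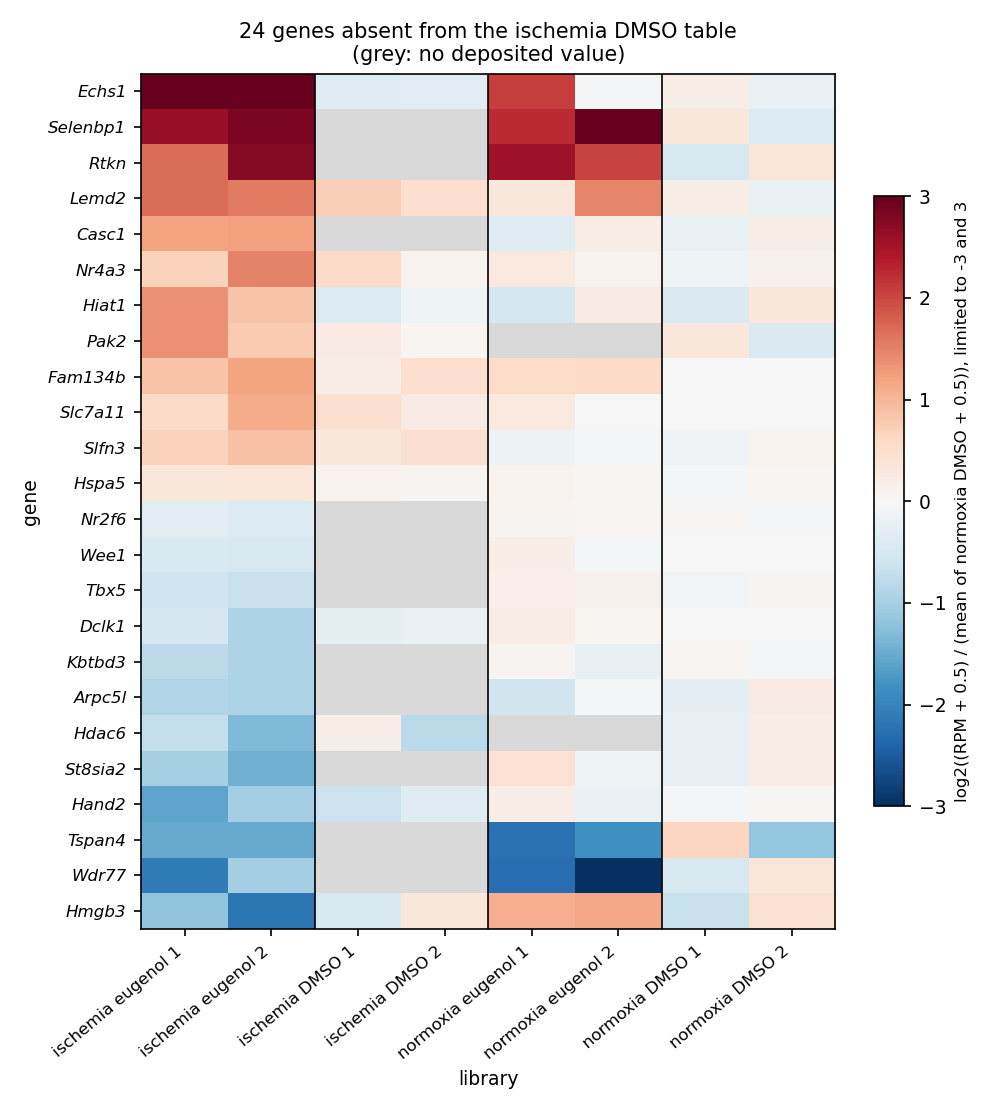
Rows are the 12 genes with the smallest unadjusted p in each direction among subset genes with a symbol and at least 5 RPM, and columns are the 8 libraries. Colour gives log2((RPM + 0.5) / (mean of normoxia DMSO + 0.5)), limited to -3 and 3, and grey marks libraries not analysed here for that gene. Echs1 is dark red in both ischemia eugenol libraries and pale in both ischemia DMSO libraries, whereas Rtkn and Selenbp1 are also red in normoxia eugenol.

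Turning to the whole table, HIF targets were higher in ischemia eugenol. Of 28 HIF targets, 23 were called higher and 2 lower, against 18.5% and 20.8% of all genes adjusted, with a median log2 fold change of 1.45 among the 25 listed, against -0.32 among all 7317 genes listed. Ndrg1, a hypoxia-responsive differentiation gene, had 357 and 334 RPM in ischemia eugenol against 29.6 and 31.0 RPM in normoxia DMSO. Slc2a1, the glucose transporter GLUT1, had 1128 and 975 RPM in ischemia eugenol against 199 and 187 RPM in normoxia DMSO, and Ero1l, an oxidase of protein folding, 1199 and 1028 against 116 and 113 RPM. Vegfa, the vascular growth factor, had 4173 and 3621 RPM in ischemia eugenol and 932 and 1047 RPM in normoxia DMSO. Every ischemia eugenol library of these 4 genes was at least 3-fold above every normoxia DMSO library, and the log2 changes were 3.51 ± 0.11, 2.45 ± 0.11, 3.28 ± 0.12 and 1.98 ± 0.11. The 2 lower members were Edn1, the vasoconstrictor endothelin 1, at 11.2 and 15.1 RPM in ischemia eugenol against 28.8 and 34.4 RPM in normoxia DMSO, and Plin2, a lipid droplet coat protein, at 72.7 and 82.8 against 105 and 91.1 RPM. Plin2 lost the refit's call with DESeq2 size factors (-0.16, adjusted p = 0.199, edgeR quasi-likelihood), without ischemia eugenol replicate 1 (-0.24, adjusted p = 0.139) and without normoxia DMSO replicate 1 (-0.23, adjusted p = 0.119).

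Promoters of 4 called members are shown, from lists in which nearly all called members went in 1 direction. They were picked among called members whose window holds the list's motif, so a match in them is no finding. Cholesterol synthesis, also called in 1 direction, had no such member. The windows run from 250 bases before to 50 after the gene start, and the sequences are RefSeq's on the rat assembly GRCr8. Capitals mark motif matches on either strand: ACGTG or GCGTG, the core of the HIF element, in Slc2a1, TGACNNNGC, the core of the antioxidant element, in Gstp1 and Gclm, and TTTGAA or TTCGAA, the cell cycle homology region, in Cdc20. The windows lie at chr5:138002272-138002571 on the plus strand, chr1:210769656-210769955 on the minus strand, chr2:213031885-213032184 on the plus strand and chr5:137255750-137256049 on the minus strand.
Slc2a1: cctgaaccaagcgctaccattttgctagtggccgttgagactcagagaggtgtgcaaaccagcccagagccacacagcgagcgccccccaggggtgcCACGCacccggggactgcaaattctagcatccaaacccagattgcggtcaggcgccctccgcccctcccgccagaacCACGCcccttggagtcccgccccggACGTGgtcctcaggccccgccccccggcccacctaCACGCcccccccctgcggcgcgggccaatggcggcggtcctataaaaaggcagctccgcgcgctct
Gstp1: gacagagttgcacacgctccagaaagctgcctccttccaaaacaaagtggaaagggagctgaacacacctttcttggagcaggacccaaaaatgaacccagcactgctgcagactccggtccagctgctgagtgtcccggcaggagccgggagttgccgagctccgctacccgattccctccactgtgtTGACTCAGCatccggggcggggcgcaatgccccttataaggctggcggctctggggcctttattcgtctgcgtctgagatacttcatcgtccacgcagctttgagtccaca
Gclm: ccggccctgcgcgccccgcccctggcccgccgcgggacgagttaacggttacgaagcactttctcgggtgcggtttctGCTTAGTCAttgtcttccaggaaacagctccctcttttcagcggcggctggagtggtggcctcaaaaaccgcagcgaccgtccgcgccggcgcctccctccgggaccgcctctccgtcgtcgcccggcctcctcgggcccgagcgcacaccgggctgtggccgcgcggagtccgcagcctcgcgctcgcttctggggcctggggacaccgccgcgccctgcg
Cdc20: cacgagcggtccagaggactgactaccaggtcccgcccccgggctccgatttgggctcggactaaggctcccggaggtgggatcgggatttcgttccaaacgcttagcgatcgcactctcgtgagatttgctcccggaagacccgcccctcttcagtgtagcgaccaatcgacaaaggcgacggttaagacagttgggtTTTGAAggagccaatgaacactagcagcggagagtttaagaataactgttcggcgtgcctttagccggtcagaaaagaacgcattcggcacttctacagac

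The HIF core was found in the windows of 17 of 22 called HIF targets with a promoter in the table, 77.3%, and in 42.9% of all 27457 windows. The antioxidant core was found in 5 of 21 called NRF2 targets, 23.8%, against 12.2% of all windows. The cell cycle motif was found in 9 of 19 called cell cycle genes, 47.4%, against 19.5% of all windows. The sterol element TCACNCCAC was in 0 of 15 called cholesterol synthesis genes and in 1.13% of all windows. CACGTG holds ACGTG on both strands, and TTCGAA reads the same on both strands. A match describes these letters only and is not a measured binding site.

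Glycolytic genes were mostly higher, with 12 of 21 called higher (57.1%, beside 18.5% of all genes adjusted) and 3 lower (14.3%, below the 20.8% of all genes adjusted). The median log2 fold change was 0.53 among those listed. Hk2, the hexokinase that traps glucose, had 1045 and 728 RPM in ischemia eugenol against 201 and 160.3 RPM in normoxia DMSO, and Aldoa, the muscle aldolase, 5266 and 4844 against 2364 and 2251 RPM. Gpi, glucose phosphate isomerase, and Pfkl, the liver type phosphofructokinase, changed by 1.13 ± 0.10 and 1.06 ± 0.11. The groups were apart for all 4. The 3 lower members encode muscle or heart isoforms, Pgam2 at -1.03 ± 0.20, Eno3 at -0.98 ± 0.15 and Ldhb at -0.41 ± 0.12. Ldhb missed the refit's threshold with DESeq2 size factors (-0.23, adjusted p = 0.104, edgeR quasi-likelihood) and with 3 libraries left out in turn. It was at -0.45 without ischemia eugenol replicate 1, -0.36 without ischemia eugenol replicate 2 and -0.22 without normoxia DMSO replicate 1 (edgeR quasi-likelihood, adjusted p = 0.0546, 0.0928 and 0.089).

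NRF2 targets were called in 1 direction. Among the 31 NRF2 targets 25 passed as higher (80.6%, beside 18.5% of all genes adjusted), 0 as lower (beside 20.8%) and 6 were not listed. The median log2 fold change was 1.47 among those listed, against -0.32 among all 7317 genes listed. Hmox1, haem oxygenase 1, which breaks haem down to biliverdin, iron and carbon monoxide, had 1456 and 1230.0 RPM in ischemia eugenol against 64.6 and 44.7 RPM in normoxia DMSO. Ftl1, a ferritin chain of iron storage, had 1967 and 1787 RPM in ischemia eugenol against 293 and 286 RPM in normoxia DMSO. Both were far above normoxia in each library, by log2 changes of 4.62 ± 0.18 and 2.70 ± 0.10. Txnrd1, thioredoxin reductase, Srxn1, sulfiredoxin, and Osgin1, an oxidative stress growth inhibitor, changed by 2.42 ± 0.11, 4.15 ± 0.20 and 4.54 ± 0.18. Gstp1, a glutathione transferase, had 401 and 480.5 RPM in ischemia eugenol, 347 and 321 RPM in ischemia DMSO, 103 and 98.4 RPM in normoxia eugenol and 92.7 and 92.6 RPM in normoxia DMSO. Nqo1, a quinone reductase, had 96.3 and 119 RPM in ischemia eugenol, 90.9 and 92.1 RPM in ischemia DMSO, 47.1 and 36.4 RPM in normoxia eugenol and 30.2 and 28.5 RPM in normoxia DMSO. Ischemia eugenol held the highest library of both genes, but neither was called between ischemia eugenol and ischemia DMSO in the authors' deposited table.

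Antioxidant genes outside the NRF2 list went in both directions, with 5 of 24 called higher (20.8%, beside 18.5% of all genes adjusted) and 9 lower (37.5%, beside 20.8%). The metallothioneins Mt1 and Mt2A, which bind zinc and copper, had 253 and 214 and 232 and 219 RPM in ischemia eugenol against 17.3 and 16.5 and 14.8 and 12.7 RPM in normoxia DMSO. Cat, catalase, and Sod2, the mitochondrial superoxide dismutase, were also called higher, at 1.86 ± 0.12 and 0.65 ± 0.13. Txnip, the inhibitor of thioredoxin and of glucose uptake, had 25.2 and 30.7 RPM in ischemia eugenol against 252 and 220.2 RPM in normoxia DMSO. It fell by the largest amount of the list, a log2 change of -3.08 ± 0.13, and Ucp2, Sod3 and Gpx3 were called lower at -2.16 ± 0.14, -1.60 ± 0.14 and -1.47 ± 0.14. The 12 genes of the aryl hydrocarbon receptor and of xenobiotic metabolism held 6 called higher (50%, beside 18.5% of all genes adjusted) and 0 lower. Cyp1a1, the cytochrome that oxidizes aromatic compounds, had 11.9 and 16.8 RPM in ischemia eugenol, 12.3 and 8.72 RPM in ischemia DMSO, 0.129 and 0.545 RPM in normoxia eugenol and 0.242 and 0.249 RPM in normoxia DMSO. It was nearly silent in all normoxia libraries, and its log2 change was 5.83 ± 0.36. The receptor Ahr itself was listed lower but not called, at 17.2 and 20.8 against 22.6 and 30.0 RPM.

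**Figure D3:**
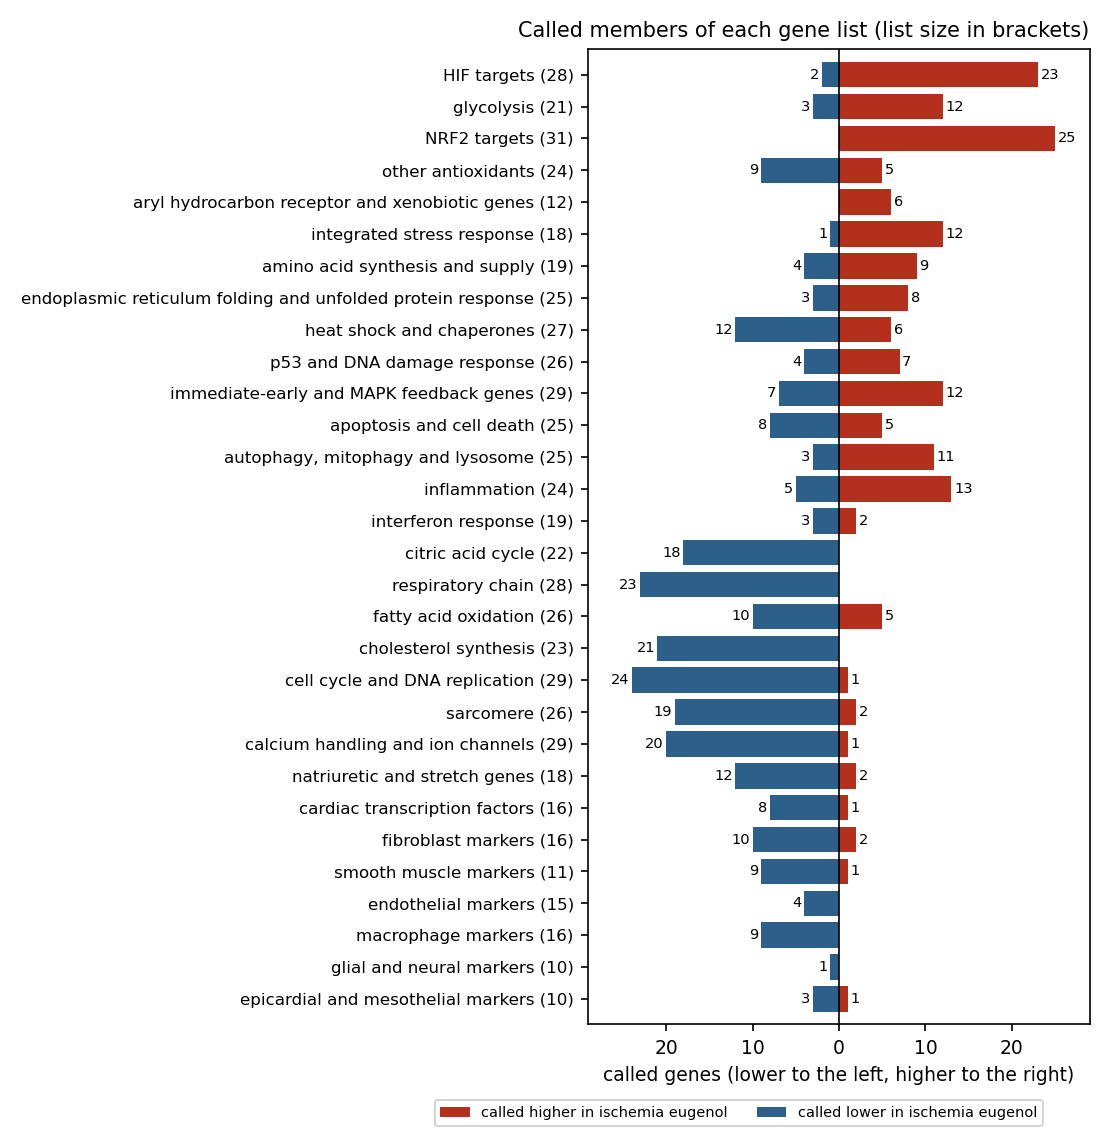
Bars give the number of members of each gene list called at an adjusted p of 0.05 in the authors' deposited table, higher in ischemia eugenol to the right and lower to the left, with the list size in brackets. HIF targets (23 higher) and NRF2 targets (25 higher) face the citric acid cycle (18 lower), respiratory chain (23 lower), cholesterol synthesis (21 lower) and cell cycle (24 lower). Among all genes adjusted, 18.5% were called higher and 20.8% lower.

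The integrated stress response, which slows translation and induces Atf4, was higher. Of 18 members, 12 were called higher (66.7%, beside 18.5% of all genes adjusted) and 1 lower (5.56%, below 20.8%). Atf4, its central transcription factor, had 801 and 703 RPM in ischemia eugenol against 271 and 289.8 RPM in normoxia DMSO. Ddit3, the CHOP factor of prolonged stress, had 191 and 149 RPM in ischemia eugenol against 43.5 and 38.4 RPM in normoxia DMSO, and Cebpb changed by 2.03 ± 0.12. These groups were well apart, with log2 changes of 1.42 ± 0.11 for Atf4 and 2.06 ± 0.14 for Ddit3. The 1 lower member, Eif2ak4, the amino acid sensing kinase GCN2, had a log2 change of -0.50 ± 0.14 and missed the refit's threshold without ischemia eugenol replicate 1 (-0.43, adjusted p = 0.0548, edgeR quasi-likelihood) and without normoxia DMSO replicate 2 (-0.38, adjusted p = 0.0725, edgeR quasi-likelihood). Of 19 genes of amino acid synthesis and supply, 9 were called higher (47.4%, beside 18.5% of all genes adjusted), led by Slc3a2, the shared chain of amino acid exchangers, at 2.0 ± 0.11. A further 4 were called lower (21.1%, near the 20.8% of all genes adjusted), among them Psph of serine synthesis at -1.26 ± 0.16. Slc38a2, another of the 4, missed the refit's threshold with TMM factors (-0.21, adjusted p = 0.0719, edgeR quasi-likelihood) and with DESeq2 size factors (-0.10, adjusted p = 0.362, edgeR quasi-likelihood), and without ischemia eugenol replicate 1 (-0.18) or normoxia DMSO replicate 1 (-0.26).

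Of 25 endoplasmic reticulum genes, 8 were called higher (32%, beside 18.5% of all genes adjusted) and 3 lower (12%, below the 20.8% of all genes adjusted). Those called higher included the stress sensor Ern1, at 128 and 105 RPM in ischemia eugenol against 42.7 and 41.1 RPM in normoxia DMSO, and Herpud1 of protein degradation at 1.12 ± 0.11. The 3 called lower, Dnajb11, Pdia6 and Pdia3, are folding helpers, and Dnajb11 had 61.0 and 64.5 RPM in ischemia eugenol against 129 and 146 RPM in normoxia DMSO. Pdia3 missed the refit's threshold with DESeq2 size factors (-0.18, adjusted p = 0.12, edgeR quasi-likelihood) and without ischemia eugenol replicate 1 (-0.27, adjusted p = 0.0893, edgeR quasi-likelihood). Of 27 heat shock genes and chaperones, 6 were called higher (22.2%, near the 18.5% of all genes adjusted) and 12 lower (44.4%, beside 20.8%). Hspb3, a small heat shock protein of muscle, had 8.50 and 11.1 RPM in ischemia eugenol against 86.2 and 97.2 RPM in normoxia DMSO, and Cryab, the small chaperone of the sarcomere, 347 and 456 against 1013 and 1142 RPM. Hspa1b, an inducible HSP70 gene whose reads may be shared with its near-identical copy Hspa1a, was the largest riser, at 17.1 and 17.5 RPM in ischemia eugenol against 1.87 and 2.55 RPM in normoxia DMSO. Hsp90ab1 and Hspa9, the mitochondrial HSP70, rose by 0.64 ± 0.09 and 0.81 ± 0.12 on the log2 scale.

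Of 29 immediate-early genes and feedback regulators of the MAPK pathway, 12 were called higher (41.4%) and 7 lower (24.1%, near the 20.8% of all genes adjusted). Myc, the growth factor induced transcription factor, had 135 and 123 RPM in ischemia eugenol against 22.4 and 25.2 RPM in normoxia DMSO, and Maff, a small MAF protein, 111 and 106 against 18.3 and 20.7 RPM. Klf2 and the phosphatase Dusp1 went the other way, at -2.12 ± 0.24 and -1.57 ± 0.11. Fos, another lower member, had 14.1 and 16.5 RPM in ischemia eugenol against 23.0 and 22.0 RPM in normoxia DMSO and missed the refit's threshold without ischemia eugenol replicate 1 (-0.44, adjusted p = 0.0509, edgeR quasi-likelihood). Of 26 p53 and DNA damage genes, 7 were called higher and 4 lower, and these shares of 26.9% and 15.4% lie near the 18.5% and 20.8% of all genes adjusted. Cdkn1a, the cell cycle inhibitor p21, had 231 and 222 RPM in ischemia eugenol against 102 and 104 RPM in normoxia DMSO, and Mdm2, which degrades p53, changed by 1.02 ± 0.11. Gadd45g was the lower member of largest change, at -1.31 ± 0.21.

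Of 25 cell death genes 5 were called higher and 8 lower, 20% and 32% beside 18.5% and 20.8% of all genes adjusted. Bcl2l11, the death activator BIM, had 63.7 and 62.3 RPM in ischemia eugenol against 17.0 and 14.4 RPM in normoxia DMSO, and Bcl2, which blocks death, had 3.81 and 5.45 against 14.3 and 14.8 RPM. The death effectors Bok and Bak1 were also called lower, at -1.61 ± 0.11 and -0.73 ± 0.10, so members that promote and members that block death were found on the lower side. Of 25 autophagy, mitophagy and lysosome genes, 11 were called higher (44%, beside 18.5%) and 3 lower (12%, below 20.8%). Gabarapl1, an autophagosome membrane protein, had 189 and 202 RPM in ischemia eugenol against 58.7 and 50.5 RPM in normoxia DMSO, and Ulk1, the starting kinase, 208 and 225 against 93.1 and 76.3 RPM. The mitophagy kinase Pink1 changed by 0.76 ± 0.15. Becn1 and Map1lc3a were called lower, at -0.70 ± 0.10 and -0.73 ± 0.13, as was Ctsb, which missed the refit's threshold with DESeq2 size factors (-0.11, adjusted p = 0.336, edgeR quasi-likelihood) and with TMM factors (-0.21, adjusted p = 0.0664, edgeR quasi-likelihood), and without ischemia eugenol replicate 1 (-0.19) or normoxia DMSO replicate 1 (-0.26).

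Inflammatory genes were more often higher, with 13 of 24 called higher (54.2%, beside 18.5% of all genes adjusted) and 5 lower (20.8%, the same share as of all genes adjusted). Cxcl1, a neutrophil chemokine, had 79.3 and 70.5 RPM in ischemia eugenol against 20.8 and 18.5 RPM in normoxia DMSO, and Ptgs2, cyclooxygenase 2, 33.2 and 30.1 against 6.89 and 9.08 RPM. Lif, a cytokine of the interleukin 6 family, rose by 2.35 ± 0.24 and Nfkbia, the inhibitor of NF-kB, by 1.40 ± 0.11 on the log2 scale. Ccl2, a monocyte chemokine, was called lower, at 42.5 and 42.4 against 117 and 108 RPM, and so were Vcam1, Il1b, Il1rl1 and Ccl7. Il1rl1 missed the refit's threshold without ischemia eugenol replicate 1 (-0.30, adjusted p = 0.145, edgeR quasi-likelihood) or normoxia DMSO replicate 2 (-0.40, adjusted p = 0.0855, edgeR quasi-likelihood), and Ccl7 without normoxia DMSO replicate 1 (-0.48, adjusted p = 0.052, edgeR quasi-likelihood). Of 19 interferon response genes, 2 were called higher (10.5%), Tap1 and Irf9, and 3 lower (15.8%), Isg15, Psmb9 and Ifi27, shares below those of all genes adjusted, while the refit called 2 higher and 6 lower. Ifi27 missed the refit's threshold without ischemia eugenol replicate 1 (-0.35, adjusted p = 0.0607, edgeR quasi-likelihood).

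Genes of mitochondrial energy supply were called in 1 direction and by small amounts. In the citric acid cycle 18 of 22 members passed as lower (81.8%, beside 20.8% of all genes adjusted) and 0 as higher (beside 18.5%). Those listed lay between -0.91 and -0.26 on the log2 scale of the authors' deposited table, with a median of -0.55. The median over all 7317 genes listed was -0.32. Mdh2, malate dehydrogenase, had 337 and 345 RPM in ischemia eugenol against 669 and 602 RPM in normoxia DMSO, and Ogdh, of the oxoglutarate dehydrogenase complex, 98.1 and 89.0 against 161 and 180.2 RPM. Of 28 respiratory chain genes, 23 were called lower (82.1%) and 0 higher. Those listed lay between -1.0 and -0.24 in the authors' deposited table, with a median of -0.59. Cycs, cytochrome c, had 266 and 229 RPM in ischemia eugenol against 526 and 456 RPM in normoxia DMSO, and Atp5g3, a subunit of the ATP synthase ring, 363 and 364 against 783 and 649 RPM. The groups did not overlap in these 4 genes. With DESeq2 size factors, under which 88.5% of the genes in the refit passed in place of 96.8%, it called 15 respiratory chain genes and 13 citric acid cycle genes, all lower.

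Of 26 fatty acid oxidation genes 5 were called higher (19.2%, beside 18.5% of all genes adjusted) and 10 lower (38.5%, beside 20.8%). Fabp3, the fatty acid carrier of the heart, had 235 and 235 RPM in ischemia eugenol against 622 and 522 RPM in normoxia DMSO, and Acadm, an acyl-CoA dehydrogenase, changed by -0.95 ± 0.12. Angptl4, a secreted inhibitor of lipoprotein lipase, Ppara, the fatty acid sensing nuclear receptor, Cpt1b, which passes fatty acids into mitochondria, and Hadhb were called higher together with Echs1. Angptl4 had 8.31 and 8.20 RPM in ischemia eugenol against 1.33 and 2.24 RPM in normoxia DMSO, and Hadhb missed the refit's threshold without ischemia eugenol replicate 1 (0.26, adjusted p = 0.0822, edgeR quasi-likelihood). Genes of cholesterol synthesis fell, with 21 of 23 called lower (91.3%, beside 20.8% of all genes adjusted) and 0 higher. The median log2 fold change was -1.80 among those listed. Idi1, an isomerase of the mevalonate route, had 8.43 and 11.97 RPM in ischemia eugenol against 111 and 128 RPM in normoxia DMSO. Hmgcs1, HMG-CoA synthase, had 69.2 and 58.8 RPM in ischemia eugenol against 317 and 359.6 RPM in normoxia DMSO. Each was lower in both ischemia eugenol libraries, by log2 changes of -3.55 ± 0.16 and -2.40 ± 0.12. The regulators Srebf1 and Srebf2, which drive this pathway, were called lower as well, at -1.08 ± 0.10 and -1.36 ± 0.11.

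Cell cycle and DNA replication genes were lower. Of 29, 24 were called lower (82.8%, beside 20.8% of all genes adjusted) and 1 higher (3.45%, below 18.5%). Ccnb1, the mitotic cyclin B1, had 17.3 and 21.0 RPM in ischemia eugenol against 99.1 and 113 RPM in normoxia DMSO, and Cdk1, its kinase, 19.3 and 21.4 against 88.7 and 92.9 RPM. Cdc20, an activator of the anaphase-promoting complex, had 23.7 and 24.96 RPM in ischemia eugenol against 115 and 124 RPM in normoxia DMSO. These mitotic genes fell by 2.47, 2.16 and 2.30 on the log2 scale, with the groups well apart. Replication genes changed less, Pcna by -0.49 ± 0.10 and Mcm3 by -0.70 ± 0.14. The 1 higher member, Ccnd2, a D cyclin, had 177 and 176 RPM in ischemia eugenol against 153 and 135 RPM in normoxia DMSO, and its refit log2 change was 0.29 ± 0.11. It was at 0.28 without ischemia eugenol replicate 1, 0.30 without ischemia eugenol replicate 2 and 0.20 without normoxia DMSO replicate 2, none past the threshold (edgeR quasi-likelihood, adjusted p = 0.085, 0.0714 and 0.147). A fall in dividing cells and less RNA of these genes in each cell cannot be told apart in bulk samples.

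Contractile genes were lower as a list. Of 26 sarcomere genes, 19 were called lower (73.1%, beside 20.8% of all genes adjusted) and 2 higher (7.69%, below 18.5%). Together the 21 listed sarcomere genes held 28260 and 26711 RPM in ischemia eugenol against 53431 and 55471 RPM in normoxia DMSO. That sum leaves out members without a listed difference. Actc1, cardiac actin, had 6891 and 6180.1 RPM in ischemia eugenol against 19373 and 20519.7 RPM in normoxia DMSO. Myl4 and Myl7, light chains of the atrial and embryonic heart, had 40.2 and 54.5 and 36.7 and 41.2 RPM in ischemia eugenol against 251 and 257 and 187 and 168 RPM in normoxia DMSO. These 3 genes were lower in both libraries, by log2 changes of -1.61 ± 0.09, -2.42 ± 0.14 and -2.19 ± 0.12. Myh6, the fast myosin heavy chain of the heart, changed less, with 5978 and 4868 RPM in ischemia eugenol, 5637 and 7104 RPM in ischemia DMSO and 8806 and 9255 RPM in normoxia DMSO. Acta1, skeletal actin, and Des, desmin, were the 2 called higher, at 0.80 ± 0.13 and 0.55 ± 0.09. Actins and myosin heavy chains are close paralogs, and the authors' counting may have split reads between them.

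Calcium handling and ion channel genes were also lower, with 20 of 29 called lower (69%, beside 20.8% of all genes adjusted) and 1 higher (3.45%, below 18.5%). Casq2, the cardiac calcium store protein calsequestrin, had 289 and 331 RPM in ischemia eugenol against 1275 and 1099.9 RPM in normoxia DMSO, and Casq1, the skeletal form, 83.6 and 104 against 558 and 584 RPM. Jph2, which ties the calcium store to the cell membrane, changed by -1.38 ± 0.10. The 1 higher member was the potassium channel Kcnd3, at 20.8 and 17.1 RPM in ischemia eugenol against 9.85 and 9.26 RPM in normoxia DMSO. Of 18 natriuretic and stretch genes, 12 were called lower (66.7%) and 2 higher (11.1%). Nppa, atrial natriuretic peptide, had 11356 and 10952 RPM in ischemia eugenol against 21338 and 20737 RPM in normoxia DMSO, and Nppb, the B-type peptide, 323 and 416 against 1561 and 1989 RPM. Ankrd1, a stretch sensor of the sarcomere, changed by -2.21 ± 0.15. Gdf15, a stress cytokine, was called higher at 96.6 and 90.04 against 14.2 and 18.4 RPM, and Ankrd2 had 15 and 9 reads in ischemia eugenol and 0 in both normoxia DMSO libraries.

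Among cardiac transcription factors, 8 of 16 were called lower (50%, beside 20.8% of all genes adjusted) and 1 higher (6.25%, below 18.5%). Tbx20 had 76.0 and 91.4 RPM in ischemia eugenol against 247 and 235 RPM in normoxia DMSO, and Mef2c and Myocd, which drive muscle genes, changed by -1.15 ± 0.11 and -1.19 ± 0.12. Mef2d was the member called higher, at 0.75 ± 0.10. Nkx2-5, a core factor of the heart lineage, was called lower by a smaller amount, -0.50 ± 0.10.

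**Figure D4:**
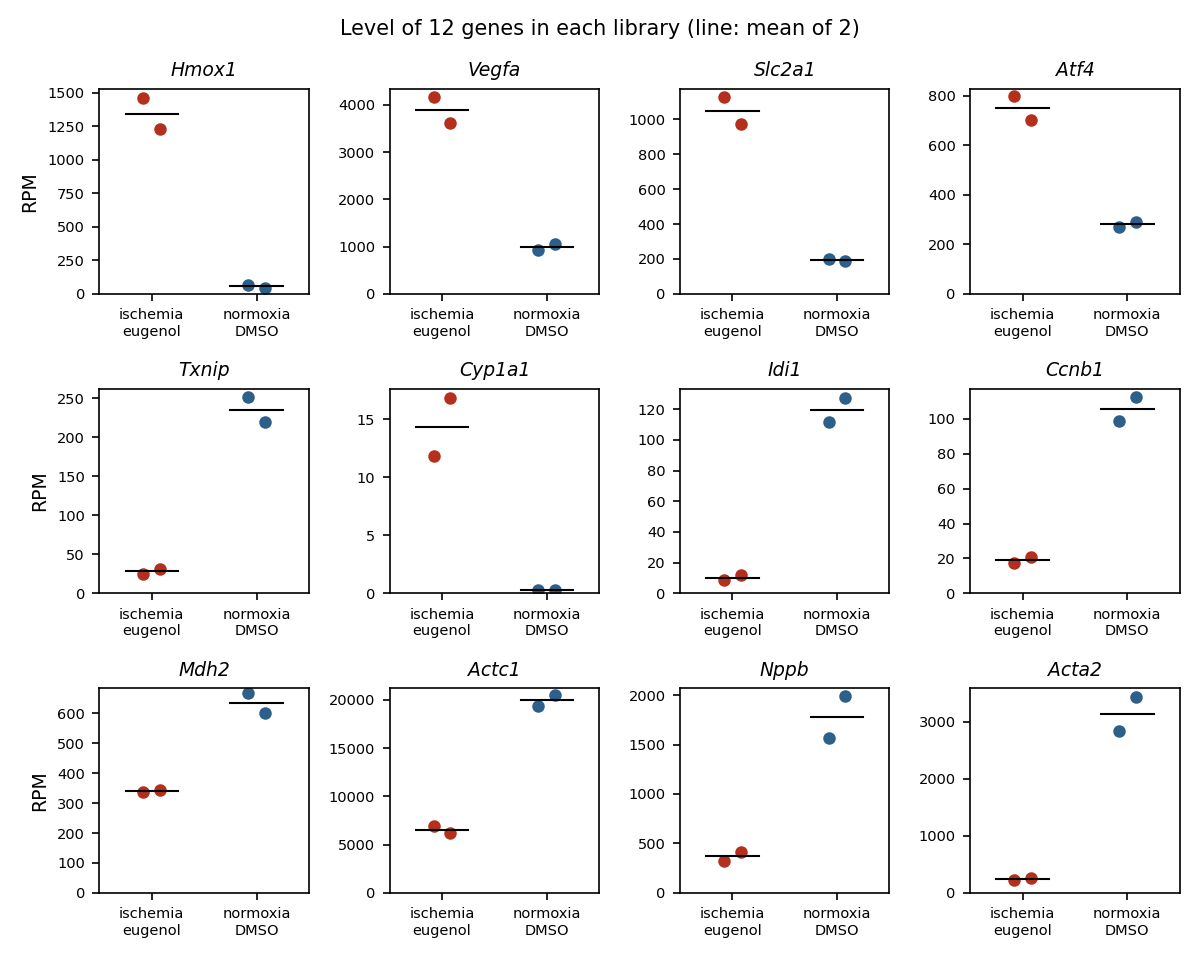
Each panel shows 1 gene, with RPM on an axis from 0, the 2 ischemia eugenol libraries on the left, the 2 normoxia DMSO libraries on the right and the mean as a line. Hmox1, Vegfa, Slc2a1, Atf4 and Cyp1a1 are higher in ischemia eugenol, and Txnip, Idi1, Ccnb1, Mdh2, Actc1, Nppb and Acta2 are lower, with no overlap in any panel.

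Of the markers of other heart cells, smooth muscle, fibroblast and macrophage lists had more members called lower than the 20.8% of all genes adjusted, and the endothelial and epicardial lists lay nearer that share. Smooth muscle markers, 11 in all, held 9 called lower and 1, Pdgfrb, higher, with a summed level of 1699 and 1682 RPM in ischemia eugenol against 5061 and 6259 RPM in normoxia DMSO. Acta2, smooth muscle actin, which neonatal muscle cells and activated fibroblasts also express, had 228 and 259 RPM in ischemia eugenol against 2833 and 3434 RPM in normoxia DMSO, a log2 change of -3.69 ± 0.13. Fibroblast markers, 16 in all, held 10 called lower and 2 higher, Dcn and Fbln1, with a sum of 8123 and 9070 RPM in ischemia eugenol against 16072 and 16265 RPM in normoxia DMSO. Col3a1, a fibrillar collagen, had 1423 and 1389 RPM in ischemia eugenol against 3846 and 3679.8 RPM in normoxia DMSO, and Col1a2, its partner in the matrix, had 835 and 898 RPM in ischemia eugenol, 1233 and 1092 RPM in ischemia DMSO, 1927 and 2455 RPM in normoxia eugenol and 1658 and 1392 RPM in normoxia DMSO. Col1a2 was lowest in ischemia eugenol and highest in normoxia eugenol, and was called in both of the authors' deposited tables of eugenol against DMSO, lower in ischemia (-0.41) and higher in normoxia (0.52). The difference between these effects, -0.95 ± 0.17 on the log2 scale, did not pass as an interaction in the refit (edgeR quasi-likelihood, adjusted p = 0.143). Macrophage markers had 9 of 16 called lower and 0 higher, and endothelial markers 4 of 15 lower (26.7%) and 0 higher. Summed levels were 36.9 and 36.1 RPM for macrophages and 72.9 and 94.7 RPM for endothelium in ischemia eugenol. In normoxia DMSO they were 106.2 and 92.6 RPM and 204 and 228 RPM. All these sums cover listed markers only: 10 of 11 for smooth muscle, 14 of 16 for fibroblasts, 10 of 16 for macrophages and 5 of 15 for endothelium. Markers without a listed difference are left out, so the sums overstate any fall of a whole marker list. Of 10 epicardial markers, 3 were called lower (30%) and 1, Wt1, higher, at 19.0 and 16.6 RPM in ischemia eugenol against 4.59 and 4.35 RPM in normoxia DMSO. No erythroid marker was listed and 1 of 10 glial markers, Gfap, was, at 0.187 and 0.359 against 2.24 and 1.31 RPM. The part of these cell types in the changes of the other lists was not tested.

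By size, the top 10 rises among called genes with a symbol, at least 5 RPM and no overlap of the groups included Cyp1a1, Nrcam, Slamf7, AC107580.1, Hmox1, Echs1, Osgin1, Pla2g7 and Srxn1. Pla2g7, a secreted phospholipase of platelet-activating factor, had 195 and 153 RPM in ischemia eugenol, 138 and 165 RPM in ischemia DMSO and 8.94 and 6.09 RPM in normoxia DMSO. Nrcam, a cell adhesion molecule, had 20.4 and 19.8 RPM in ischemia eugenol, 17.0 and 18.2 RPM in ischemia DMSO and 0.604 and 0.373 RPM in normoxia DMSO. Both were low in normoxia DMSO and high in both ischemia groups. AC107580.1, an annotated gene with a contig name, was uneven in ischemia DMSO, with 34.5 and 0.188 RPM there against 17.6 and 18.6 RPM in ischemia eugenol and 0.604 and 0.808 RPM in normoxia DMSO.

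The top 10 falls under the same rule were Wscd2, Ogn, Timm17b, Cd34, Cmtm5, Ccl12, Asb4, Lppr5, Tma7 and Acta2. Wscd2, a WSC domain protein, had 0.125 and 0.0599 RPM in ischemia eugenol, 18.6 and 19.7 RPM in normoxia eugenol and 18.4 and 19.5 RPM in normoxia DMSO, with 2 and 1 reads behind the ischemia eugenol values. Ogn, the matrix proteoglycan osteoglycin, had 0.125 and 0.0599 RPM in ischemia eugenol and 0.129 and 0.477 RPM in normoxia eugenol, against 5.74 and 5.10 RPM in normoxia DMSO. Unlike Wscd2, Ogn was low in normoxia eugenol too, where the authors' deposited table called it lower than in normoxia DMSO (-4.18, adjusted p = 7.7e-07). The same normoxia DMSO libraries stand in both comparisons. Rbm12, an RNA-binding protein chosen here after its values were seen, had 0.687 and 0.778 RPM in ischemia eugenol, 0.507 and 0.690 RPM in ischemia DMSO and 0.711 and 0.681 RPM in normoxia eugenol, against 5.26 and 4.66 RPM in normoxia DMSO, so that only normoxia DMSO was high. Cd34, a surface protein of blood vessel lining cells, had 0.625 and 0.778 RPM in ischemia eugenol against 20.6 and 21.7 RPM in normoxia DMSO, and Asb4, a ubiquitin ligase subunit, 2.19 and 4.85 against 77.8 and 57.6 RPM. Tma7, a small ribosome-associated protein, had 0.937 and 1.38 RPM in ischemia eugenol against 28.8 and 1.93 RPM in normoxia DMSO, which disagreed with each other, and without normoxia DMSO replicate 1 its refit log2 change was -0.73 (adjusted p = 0.189, edgeR quasi-likelihood). Without ischemia eugenol replicate 1 or 2 it was at -3.48 and -4.03 and also missed the threshold (edgeR quasi-likelihood, adjusted p = 0.0783 and 0.0604).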

How the data were processed

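RNA sequencing of 8 libraries was deposited as 5 tables, 1 for each comparison, and each lists only genes with an unadjusted p under 0.05. Per the file headers, the authors gave raw read counts, normalized counts (a signal equal to the count divided by a size factor) and FPKM for each library, with a log2 fold change, a p-value and an adjusted p-value for each gene. Tools listed without a role in the submitters' processing notes are DESeq2, edgeR, StringTie 1.3.3b and HISAT2, and the genome build is not given in the sources used here. Column names carry codes, and each code was tied to its group by the set of tables it occurs in and to its replicate by its number.

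From these files, the total behind each library was computed from its reads, FPKM and gene lengths, and RPM from reads and totals. The number of genes adjusted in a comparison was taken as the largest adjusted p over p, multiplied by the rank of p. Read counts were refitted with edgeR 4.0.16 (quasi-likelihood, Benjamini-Hochberg adjustment, R 4.3.3) on 7695 genes, or on 6582 genes with reads in all 8 libraries, and with DESeq2 1.42.0 as an alternative. Each SE is the log2 change divided by the square root of F. On simulated data over 7695 genes, 67, 67 and 66 genes of at least 5 RPM were changed by 1.5, 2 and 4-fold. The refit recovered 53.7, 95.5 and 100% of them and made 14 false calls. In the real data 96.8% of the genes passed, so these shares need not hold there. Tables were joined in Python 3.11.15 with pandas 2.3.3.

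Genes were named by rule: the 10 largest rises and falls among called genes with a symbol, at least 5 RPM in the higher group and no overlap; up to 3 called members of each of 31 gene lists and those against its majority; 12 genes in each direction from the subset; and any member called between eugenol and DMSO groups. Further list members are given to describe a list. The members, the lists and the rule were chosen with earlier results of these data known. The settings tried are in the closing part. Some named genes are not reported here.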

Additional observations from a re-analysis of the deposited data

How the results depend on the processing

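The 6299 calls became 2594 with a fold minimum of 2, and stayed between 4935 and 7450 with an adjusted p of 0.01, a minimum of 5 RPM, the edgeR refit or a DESeq2 Wald test. The 599 genes absent from the ischemia DMSO table became 396 with a minimum of 5 RPM and 240 when only called genes were kept. The refit's 7450 calls ranged from 6169 to 7497 over TMM, DESeq2 or the authors' size factors (the last chosen after seeing the data), a minimum of 5 RPM, all 8 libraries, listed genes alone, a replicate block and left-out libraries. The share of these calls that were higher was 48.3% with the totals and 54.1% with DESeq2 size factors. The interferon list held 8 called members in the refit in place of 5, and the respiratory chain 15 with DESeq2 size factors in place of 23. Between the ischemia groups the refit's 1 call, Echs1, became 0 to 11 calls when 1 library was left out, and was 1 with the replicate block (both chosen after seeing the data). Echs1 was not among them without ischemia DMSO replicate 1 or 2. The cause was not tested.

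None of 214 named genes changed direction. With DESeq2 size factors 14 lost the threshold, and 10 to 32 did so with 1 library left out, most without ischemia eugenol replicate 1 (a group left with 1 library is assumed to vary like the other). Replicate numbers did not pair the libraries (correlation of deviations 0.0673 over 6587 genes), and the replicate block gave 7497 calls. With 2 libraries a group, low-level genes are the least certain, and 203 of the 599 lay below 5 RPM.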

Other observations

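Transcripts of the mitochondrial genome, looked at after their values were seen, went in different directions by kind. Both listed mitochondrial ribosomal RNAs were called higher, and together they took 0.768 and 0.57% of the total in ischemia eugenol against 0.199 and 0.19% in normoxia DMSO. Of 4 listed mitochondrial transfer RNAs, 3 were called higher. Of 6 listed protein-coding genes of the mitochondrial genome, 5 were called lower (Mt-co2, Mt-nd1, Mt-nd3, Mt-nd4l and Mt-cytb), and the 6 together took 1.04 and 1.28% of the total in ischemia eugenol against 1.69 and 1.88% in normoxia DMSO.

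The gene LOC100911994, a low-level member of the subset, had 1.19 and 0.419 RPM in ischemia eugenol and 0.0647 and 0.477 RPM in normoxia eugenol, against 4.06 and 5.40 RPM in ischemia DMSO and 4.11 and 3.30 RPM in normoxia DMSO. It was low in both eugenol groups and was called lower in both of the authors' deposited tables of eugenol against DMSO, by -2.55 in ischemia and -3.80 in normoxia on the log2 scale.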
